A study of Mus musculus with 4 samples.

Results

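The genes described here encode the machinery of mitosis: the mitotic spindle, the kinetochore and condensin. They were taken as a list of 51 gene symbols, sorted by function into 9 groups, and all 51 were found among the 23284 symbols of the deposited tables. RNA-seq had been carried out on pre-B cells, bone marrow precursors of B lymphocytes, from C57BL/6J mice, with 1 library in each of 4 groups. The study asked what the adaptor STAP-2, encoded by Stap2, controls in B lymphopoiesis. After transplantation there was 1 library labelled STAP-2 knockout and 1 of wild type, both from marrow 1 month after transplantation with the same code in their titles. At steady state there was 1 STAP-2 transgenic library and 1 of wild type, with another code in their titles. The labels do not give the mice's age, the promoter of the transgene, the deleted part of Stap2 or the hosts of the transplants.

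During mitosis the replicated chromosomes are compacted by condensin, captured by spindle microtubules at their kinetochores, and released for separation once the spindle assembly checkpoint is satisfied. Kinesin motors and the kinases of the Aurora and Polo families build and steer the spindle, and cytokinesis then divides the cell. Many of these genes are transcribed mainly in late S, G2 and M phase, and their level in bulk RNA is widely read as a sign of dividing cells. In the marrow, large pre-B cells pass through a burst of division after the pre-B cell receptor is first displayed, and small pre-B cells then stop dividing and rearrange their light chain genes.

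Late cell cycle genes are known for a promoter element called the cell cycle genes homology region (CHR, TTTGAA, or TTTAAA in some genes), often downstream of CCAAT boxes. Promoters of 45 of the 51 genes, 50 promoters in all, were taken from RefSeq on GRCm38.p6, from 250 bases before the start to 50 bases after it. FPKM, read fragments scaled to transcript length and library size, is the unit of the deposited values. The following 4 are shown because they belong to the 3 genes with the largest difference between the library labelled knockout and its wild type among those with a promoter, and to the gene with the smallest, counting genes at 5 FPKM or more. Each reads 5′ to 3′ along the strand of its gene, and capitals mark the CHR hexamers and the CCAAT box, on either strand. They lie at chr11:102925075-102925374 (minus strand), chr11:117848987-117849286 (plus), chr7:127042371-127042670 (minus) and chr7:131560120-131560419 (plus).
Kif18b: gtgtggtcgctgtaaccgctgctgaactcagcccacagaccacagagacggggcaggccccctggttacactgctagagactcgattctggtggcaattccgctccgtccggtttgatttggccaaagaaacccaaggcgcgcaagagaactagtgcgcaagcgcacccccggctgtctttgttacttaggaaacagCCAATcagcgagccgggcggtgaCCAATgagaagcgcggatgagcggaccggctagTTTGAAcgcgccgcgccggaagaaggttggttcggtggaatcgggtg
Birc5: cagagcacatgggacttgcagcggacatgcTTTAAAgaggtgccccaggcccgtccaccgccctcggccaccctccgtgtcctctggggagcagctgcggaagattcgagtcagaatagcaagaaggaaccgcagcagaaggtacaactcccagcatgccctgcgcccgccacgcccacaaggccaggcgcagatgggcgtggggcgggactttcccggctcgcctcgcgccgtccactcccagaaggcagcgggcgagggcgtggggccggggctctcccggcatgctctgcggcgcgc
Kif22: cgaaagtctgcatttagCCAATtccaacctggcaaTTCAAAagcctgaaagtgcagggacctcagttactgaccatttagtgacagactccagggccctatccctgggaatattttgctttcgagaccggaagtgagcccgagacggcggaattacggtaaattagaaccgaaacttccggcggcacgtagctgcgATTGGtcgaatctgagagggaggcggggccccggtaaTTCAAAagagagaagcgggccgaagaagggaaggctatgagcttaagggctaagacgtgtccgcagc
Bub3: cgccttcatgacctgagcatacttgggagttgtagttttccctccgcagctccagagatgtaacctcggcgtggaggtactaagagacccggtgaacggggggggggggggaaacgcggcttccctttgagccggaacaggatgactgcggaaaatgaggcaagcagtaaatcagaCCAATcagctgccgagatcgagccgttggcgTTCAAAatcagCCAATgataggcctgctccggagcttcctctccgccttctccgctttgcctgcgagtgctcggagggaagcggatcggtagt

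Kif18b holds TTTGAA just inside the transcript and a pair of CCAAT boxes before the start. Kif22 and Bub3 hold it, in complement, upstream of the start, each with 2 CCAAT boxes, and Bub3 has another annotated start whose window covers the same elements. The window of Birc5 holds only a distant TTTAAA. Over the 50 promoters, TTTGAA lay on either strand within 50 bases of the start in 33, or 66%, against 1624 of all 32851 promoters in the table (4.94%). Among 10968 promoters of genes at 1 FPKM or more in any library the share was 3.23%. TTTAAA lay equally close in 10% of the 50, against 3.64% of all promoters, and CCAAT stood anywhere in the window in 76.0% against 37.4%. CCAAT together with TTTGAA or TTTAAA near the start was found in 60.0% of the 50 and in 3.35% of all promoters. GGCGG, a letter run common in GC-rich promoters, was in 90% of the 50, in 48.8% of all promoters and in 79.5% of promoters of expressed genes, of which CCAAT was in 38.6%. Every motif was searched on both strands, and overlapping matches were each counted. A match is a run of letters and not a measured binding site.

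**Figure D1:**
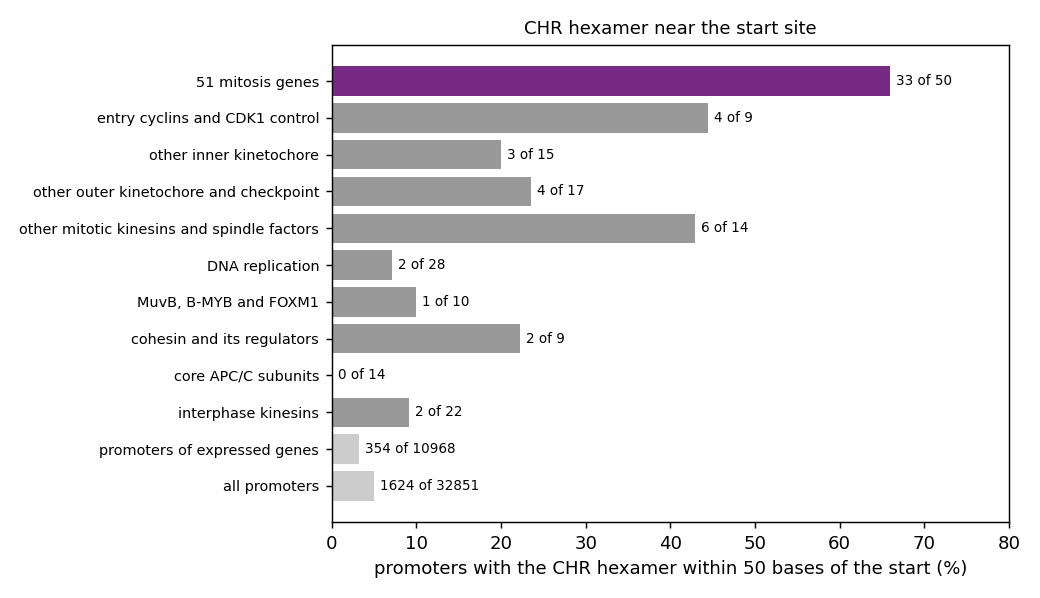
Share of promoters, in percent, with the CHR hexamer TTTGAA on either strand within 50 bases of the annotated start. TTTAAA is not counted. The bar of the mitosis genes covers 50 promoters of 45 of the 51 genes. Other bars are other gene lists, promoters of expressed genes and all promoters, and the labels give promoters with the hexamer of promoters searched. The mitosis genes have the longest bar, 66%, and the core subunits of the anaphase-promoting complex have none.

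Other mitosis genes held TTTGAA near the start in 4 of 9 promoters of entry cyclins and CDK1 regulators and in 6 of 14 of other mitotic kinesins and spindle factors. The counts were lower, 3 of 15, 4 of 17 and 1 of 4, for other inner kinetochore genes, other outer kinetochore and checkpoint genes, and condensin II, and 2 of 9 for cohesin. It was in 2 of 28 promoters of replication genes, 2 of 22 of kinesins that work outside mitosis, and 0 of 14 of core subunits of the anaphase-promoting complex. Within the list, genes with and without the elements had close medians. In the transplant comparison, 32 genes with TTTGAA or TTTAAA near a start had a median difference of 0.92 in log2(FPKM + 1), and 13 without either had one of 0.90. Outside the list, 303 genes that carry TTTGAA near a start had a median of 0.03 in that comparison, against -0.04 in 8153 genes without it. In these sets 4 genes with the hexamer (1.32%) and 23 without it (0.282%) were at least 2-fold higher. At steady state 0 of 301 with it and 80 of 8196 without it (0.976%) were, the opposite order.

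Before the values, the labels were checked. Stap2 was barely detected anywhere, with 0.179 FPKM in the library labelled knockout, or 2 reads, and listed at 0 in transplanted wild type, where 3 reads would be 0.298 FPKM. In the transgenic library it stood at 0.536 FPKM, or 5 reads, and in steady-state wild type at 0.212, or 2 reads. Its level checks neither label and for the knockout lies on the wrong side, so that library is called "the library labelled knockout" throughout. Of the B lineage markers, Cd79a, a signalling chain of the B cell receptor, lay between 1624 and 1952 FPKM in the 4 libraries, and Pax5, the B lineage commitment factor, between 287 and 334. Others of that list were less even: Rag1, of the recombinase that rearranges receptor genes, was at 286 FPKM in the library labelled knockout and 453 in transplanted wild type, and at 429 in the transgenic library and 638 in steady-state wild type. Ebf1, an early B lineage factor, was at 169 FPKM in the library labelled knockout and 154 in transplanted wild type, and at 139.8 in the transgenic library and 194 in steady-state wild type. Rag1 was thus lower where the mitosis genes were higher in both genotype comparisons, with ratios of 0.631 (0.619 to 0.644) and 0.672 (0.660 to 0.684). In transplanted against steady-state wild type Rag1 was lower together with the mitosis genes, at 0.711 (0.698 to 0.723). Rag2, of the same recombinase, had ratios of 1.24 (1.13 to 1.37) after transplantation and 0.92 (0.841 to 1.01) at steady state. Of the 8 B lineage markers, 3 were higher and 5 lower in the library labelled knockout, and all 8 were lower in the transgenic library. The part of these genes in the results was not tested. Sequencing depth, read off the spacing of low values, came to 8700000 and 7760000 reads for the library labelled knockout and transplanted wild type, and 7280000 and 7340000 for the transgenic library and steady-state wild type. Since every group is a single library, differences lack a check by replicates and carry no p-value, and the 95% intervals cover counting error only.

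All 51 genes were detected in all 4 libraries, each with 39 or more estimated reads, and 50 of them stood at 5 FPKM or more in each. In 50 of 51 genes the 4 libraries fell into the same order: highest in the library labelled knockout, then transgenic, then steady-state wild type, with transplanted wild type lowest. Pttg1, which encodes securin, the inhibitor of separase, was the exception: it was highest in steady-state wild type, and lowest, like all the others, in transplanted wild type. The order ranks libraries across title codes and across transplantation, which cannot be told apart, and how many of all genes share it was not counted. Some of its steps are small: the counting interval of the ratio held 1 for 17 genes between the wild types and for 5 at steady state. The summed level of the 51 genes was 2394 FPKM in the library labelled knockout and 1293 in transplanted wild type, a ratio of 1.85. It was 2003 in the transgenic library and 1583 in steady-state wild type, a ratio of 1.27. Per gene the lowest level in each library belonged to Cenpk and the highest to Top2a, and Cenpk, with 39 estimated reads in transplanted wild type, was the least precisely measured. In bulk RNA, fewer dividing cells and less of each RNA per cell cannot be told apart.

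**Figure D2:**
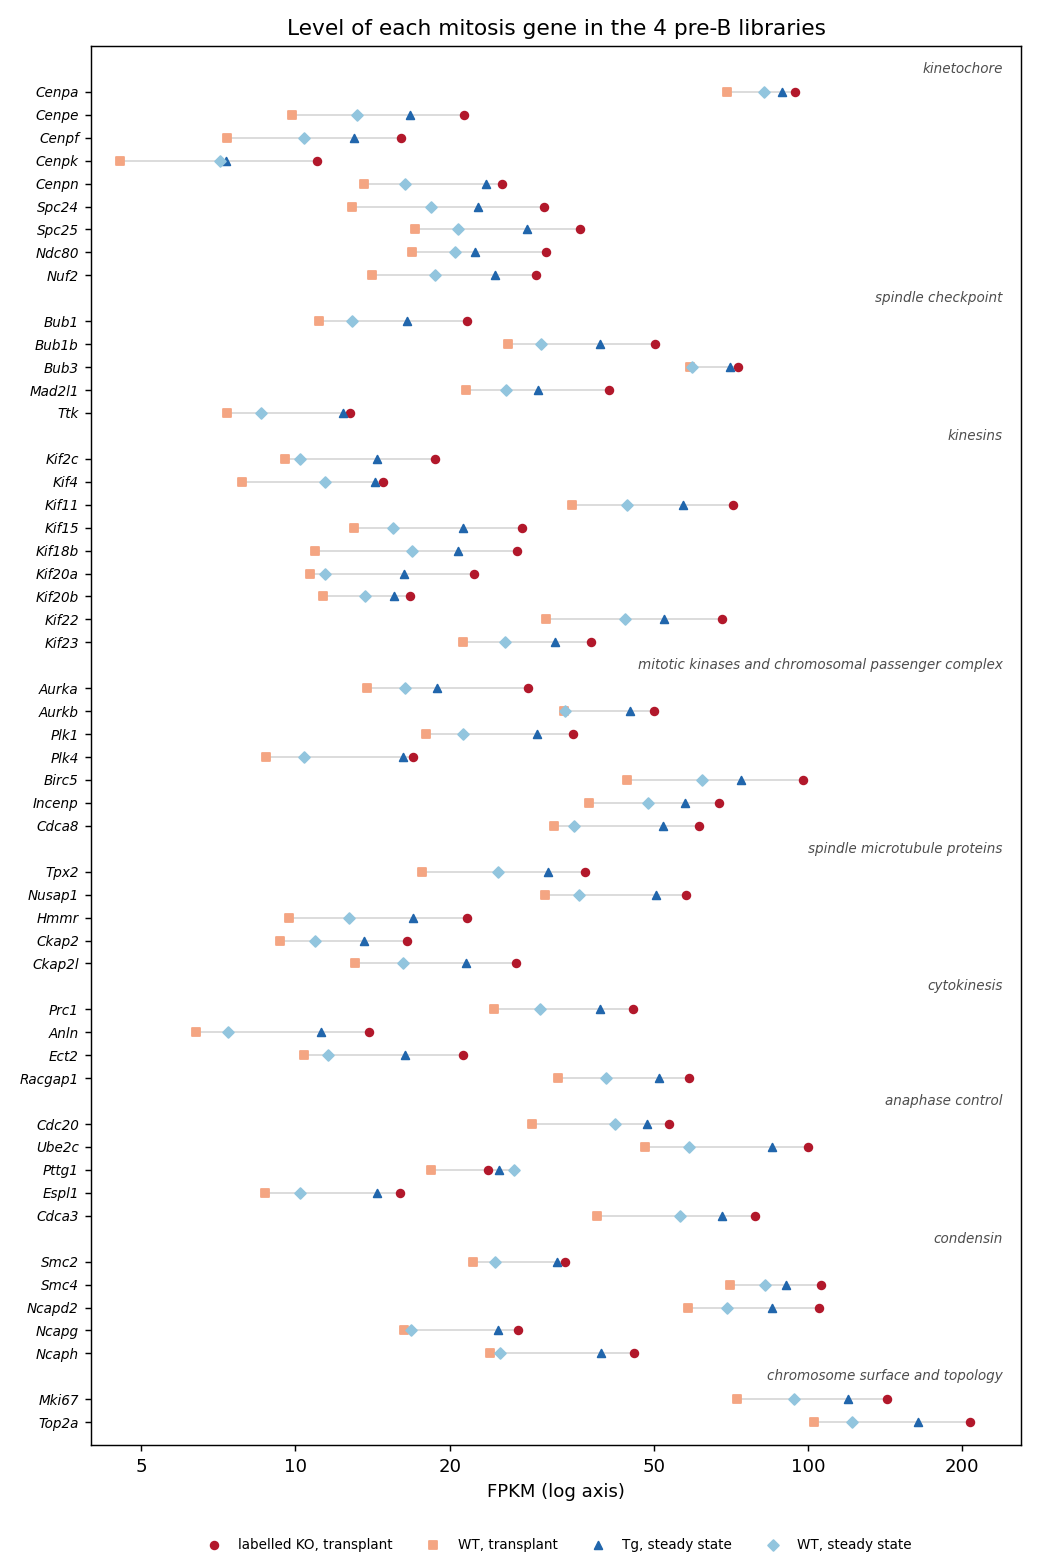
FPKM, on a log axis, of the 51 mitosis genes in the 4 libraries, 1 row a gene, in groups by function; circles are the library labelled knockout, squares transplanted wild type, triangles transgenic and diamonds steady-state wild type, and grey lines join the lowest and highest value. Circles stand at the right and squares at the left of every row, except that for Pttg1 the diamond is the rightmost.

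Loss of STAP-2 in recovering marrow is the question of the transplant pair. All 51 genes had higher values in the library labelled knockout, against 44.0% of the 10790 genes that reached 1 FPKM in at least 1 library of the pair, and none was lower, against 56.0%. The median difference was 0.91 in log2(FPKM + 1), ranging from 0.31 for Bub3 to 1.24 for Kif18b, beside a median of -0.03 over all those genes. Of the 51, 18 were at least 2-fold higher on that scale, against 0.667% of all genes, and they were 35.3% of the list and 25% of the 72 genes past 2-fold. The list was chosen with earlier results of these data known, so these shares and those of the comparisons below describe it and are not a test. The counting interval of the ratio lay above 1 for all 51, and the share of all genes with such an interval was not counted. When libraries were scaled to the same FPKM sum, the median over all genes became 0.06 and that of the 51 genes 1.00. As ratios of FPKM, the quartiles over the 51 genes were 1.80 and 2.08.

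Added STAP-2 without transplantation is the question of the steady-state pair. The transgenic library was higher in 50 of 51 genes, where 46.7% of 10843 genes were higher and 53.3% lower, at a median difference of 0.35 in log2(FPKM + 1) beside -0.02 over all genes. The range ran from -0.09 for Pttg1 to 0.63 for Ncaph. The same scaling gave a median of -0.13 over all genes and of 0.23 for the 51 genes and left 48 of them higher in the transgenic library. No gene of the list reached 2-fold in either direction, against 1.22% of all genes higher and 0.682% lower. The interval of the ratio lay above 1 for 46 genes and held 1 for Aurka, Cenpa, Cenpk, Ndc80 and Pttg1. How many of all genes had an interval above 1 was not counted here either. The quartiles of the ratios were 1.20 and 1.40.

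Across the 51 genes the log2 ratios of the 2 genotype comparisons, which share no library, had a Pearson correlation of 0.27 and a Spearman correlation of 0.14, a description over genes that are not independent replicates.

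**Figure D3:**
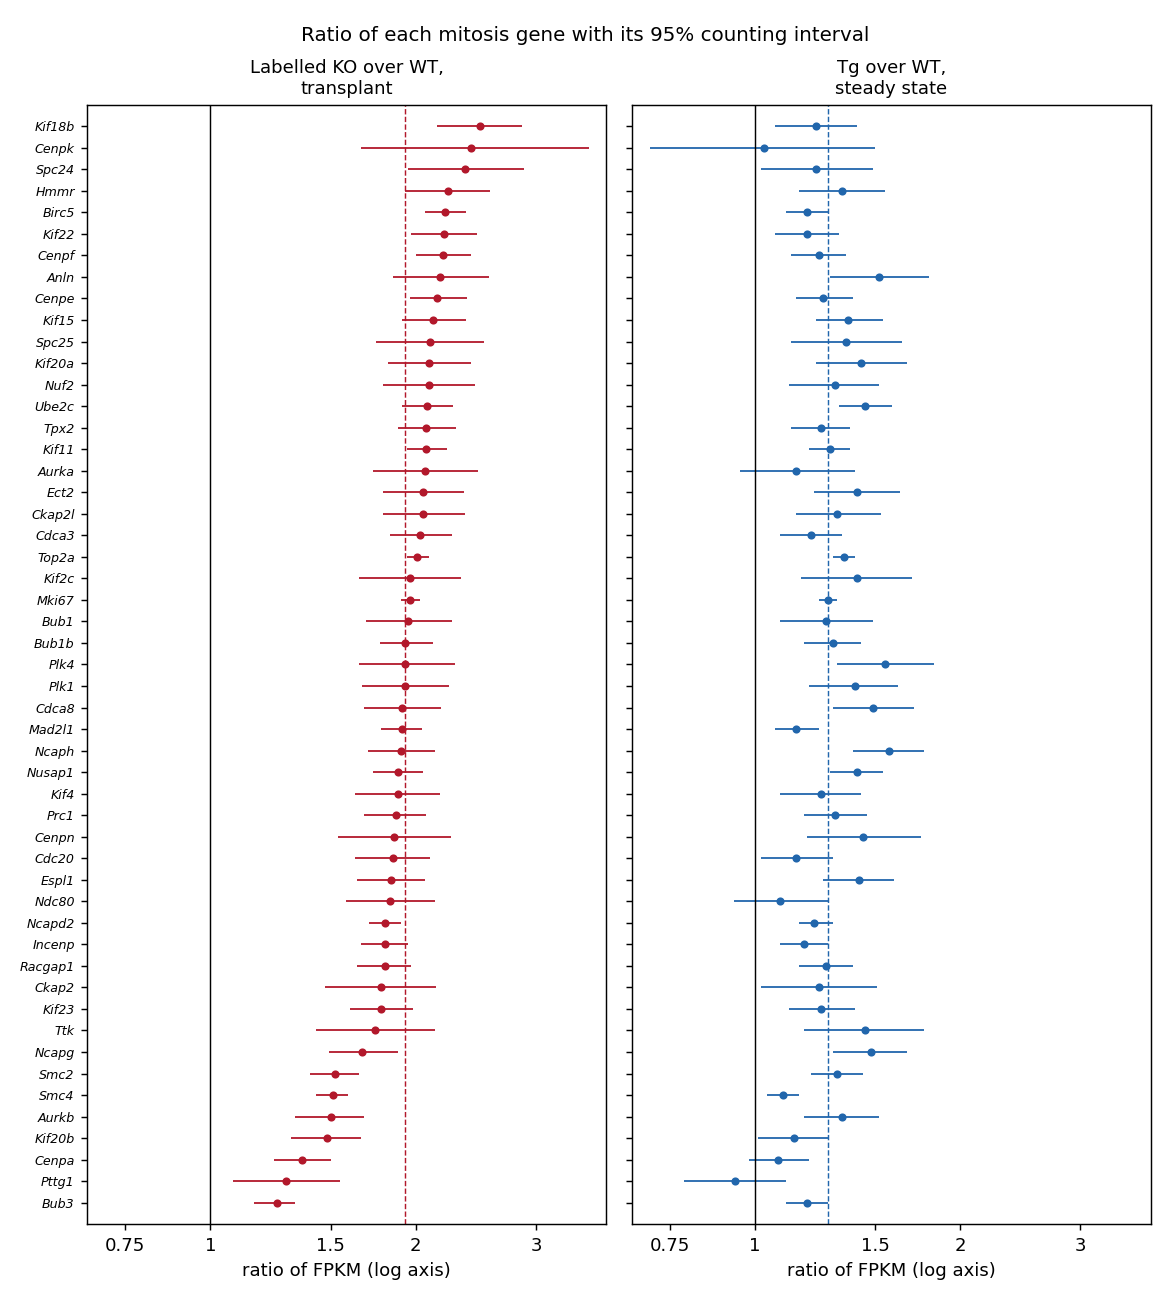
Ratio of FPKM on a log axis, labelled knockout over wild type after transplantation (left) and transgenic over wild type at steady state (right), for each of the 51 genes in the order of the left panel; bars are 95% counting intervals, the solid line is 1 and the dashed line the median ratio of the panel, 1.93 and 1.28. Every interval on the left lies above 1, and on the right 5 hold 1.

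Kinetochore genes build the platform that ties each centromere to microtubules. In the library labelled knockout all 9 stood higher, 6 of those by 2-fold or more, at a median difference of 1.03, and all 9 in the transgenic library at a median of 0.29. Spc24, a subunit of the NDC80 complex that grips the microtubule, stood at 30.5 FPKM in the library labelled knockout and 12.9 in transplanted wild type, and at 22.7 in the transgenic library and 18.4 in steady-state wild type. That is a ratio of 2.36 (95% counting interval 1.95 to 2.88) after transplantation and of 1.23 (1.02 to 1.49) at steady state. Its partners Spc25, Nuf2 and Ndc80 had ratios of 2.10, 2.09 and 1.83 after transplantation, and of 1.36, 1.31 and 1.09 at steady state, so the 4 subunits of 1 complex were higher together after transplantation.
Cenpa, the histone H3 variant that marks the centromere, was by far the most abundant of the group and differed least after transplantation. It was at 94.6 FPKM in the library labelled knockout and 69.4 in transplanted wild type, a ratio of 1.36 (1.24 to 1.5), and at 89.0 in the transgenic library and 82.3 in steady-state wild type. Cenpe, a kinesin motor at the kinetochore, had 21.3 and 9.86 FPKM in the library labelled knockout and transplanted wild type, and 16.7 and 13.2 in the transgenic library and steady-state wild type. Cenpf, a large protein of the outer kinetochore, had 16.1 FPKM in the library labelled knockout and 7.35 in transplanted wild type, and 13 in the transgenic library and 10.4 in steady-state wild type. Both were past 2-fold after transplantation and near the list's median ratio at steady state. Cenpk, of the inner kinetochore, had the lowest level and a near-level pair at steady state: it was at 11 and 4.54 FPKM in the library labelled knockout and transplanted wild type, and at 7.33 and 7.14 in the transgenic library and steady-state wild type. Its intervals were wide, 1.66 to 3.59 around 2.41 after transplantation and 0.701 to 1.5 around 1.03 at steady state. Cenpn, which reads the CENP-A nucleosome, led the group at steady state, at 23.6 FPKM in the transgenic library against 16.4 in wild type (ratio 1.44, 1.19 to 1.75), and was at 25.3 and 13.6 FPKM in the library labelled knockout and its wild type.

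The spindle checkpoint holds back anaphase until every kinetochore is attached. Its 5 genes were all higher in the library labelled knockout at a median of 0.90, none by 2-fold, and all higher in the transgenic library at a median of 0.33. Bub1b, which encodes BUBR1 of the mitotic checkpoint complex, had 50.3 FPKM in the library labelled knockout and 26.0 in transplanted wild type, and 39.3 in the transgenic library and 30.1 in steady-state wild type. Bub3, its WD-repeat partner, was at 73.2 FPKM in the library labelled knockout and 58.8 in transplanted wild type, and at 70.5 in the transgenic library and 59.4 in steady-state wild type. Its ratios, 1.25 (1.16 to 1.33) after transplantation and 1.19 (1.11 to 1.28) at steady state, lay close together, and the ratio after transplantation was the smallest of all 51 genes. Mad2l1, whose protein MAD2 is the inhibitory signal itself, had 41.0 and 21.5 FPKM in the library labelled knockout and transplanted wild type, and 29.7 and 25.8 in the transgenic library and steady-state wild type. Ttk, the MPS1 kinase that starts the signal, led the group at steady state at 12.4 FPKM in the transgenic library against 8.56 in wild type (ratio 1.45, 1.18 to 1.77), and had 12.8 and 7.36 in the library labelled knockout and its wild type. Bub1, the kinase that recruits the checkpoint to kinetochores, had ratios of 1.95 and 1.27.

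Mitotic kinesins slide, cross-link or shorten spindle microtubules. All 9 genes were higher in both genotype comparisons, at medians of 1.00 after transplantation, with 5 past 2-fold, and 0.32 at steady state. Kif18b, which encodes a motor that trims astral microtubules, had the largest difference of all 51 genes, with 27.1 FPKM in the library labelled knockout and 10.9 in transplanted wild type, a ratio of 2.48 (2.15 to 2.86). At steady state it was at 20.8 FPKM in the transgenic library against 16.9 in wild type, a ratio of 1.23 (1.07 to 1.41). Kif11, the Eg5 motor that pushes the spindle poles apart, was the most abundant at 71.6 and 34.6 FPKM in the library labelled knockout and transplanted wild type, and at 57.1 and 44.4 in the transgenic library and steady-state wild type. Kif15, which shares that task, had 27.7 FPKM in the library labelled knockout and 13 in transplanted wild type, and 21.2 in the transgenic library and 15.5 in steady-state wild type. Kif22, the chromokinesin of the chromosome arms, had 67.9 FPKM in the library labelled knockout and 30.8 in transplanted wild type, and 52.5 in the transgenic library and 44.0 in steady-state wild type. These 3 motors were all past 2-fold after transplantation. Kif20a, the MKLP2 motor that carries the passenger complex to the midzone, led the group at steady state at 16.3 FPKM in the transgenic library against 11.4 in wild type, and had 22.3 and 10.7 in the library labelled knockout and its wild type. Its paralog Kif20b differed least in both comparisons, at 16.7 FPKM in the library labelled knockout and 11.3 in transplanted wild type (ratio 1.48, 1.31 to 1.66), and at 15.6 in the transgenic library and 13.7 in steady-state wild type (1.14, 1.01 to 1.28). Kif2c, a microtubule depolymerase at centromeres, Kif4, a chromokinesin, and Kif23, of the centralspindlin complex, had ratios of 1.96, 1.88 and 1.78 after transplantation.

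The mitotic kinases and the chromosomal passenger complex, which pairs Aurora B with survivin, borealin and INCENP, made up 7 genes, all higher in both comparisons, at medians of 0.91 and 0.41. Birc5, which encodes survivin, stood at 97.9 FPKM in the library labelled knockout and 44.3 in transplanted wild type, a ratio of 2.21 (2.06 to 2.37). It was alone of its group past 2-fold in log2(FPKM + 1), although the ratio of plain FPKM was 2.06 (1.73 to 2.47) for Aurka. At steady state Birc5 was at 74.0 FPKM in the transgenic library against 62.1 in wild type, 1.19 (1.11 to 1.28), below the list's median ratio. Aurkb, the kinase of the same complex, had 50.1 FPKM in the library labelled knockout and 33.5 in transplanted wild type, a ratio of 1.5 (1.33 to 1.68), and 44.9 in the transgenic library and 33.6 in steady-state wild type, 1.34 (1.18 to 1.52). Its levels in both wild types were practically equal. Incenp, the scaffold, and Cdca8, which encodes borealin, had ratios of 1.80 and 1.91 after transplantation and 1.18 and 1.49 at steady state. The 4 subunits were thus all higher, but by amounts that differed beyond counting error, since the intervals of Aurkb and Birc5 after transplantation do not meet. Aurka, the spindle pole Aurora kinase, was at 28.5 and 13.8 FPKM in the library labelled knockout and transplanted wild type, and at 18.9 and 16.4 in the transgenic library and steady-state wild type, the least of the group there. Plk4, the kinase that licenses centriole duplication, led at steady state at 16.2 FPKM in the transgenic library against 10.4 in wild type (1.55, 1.32 to 1.83), and had 17.0 FPKM in the library labelled knockout and 8.77 in transplanted wild type. Plk1, the main Polo kinase of mitosis, had ratios of 1.93 and 1.40.

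Spindle microtubule proteins comprised 5 genes with medians of 0.98 and 0.38. Hmmr, a spindle pole adaptor, had 21.6 FPKM in the library labelled knockout and 9.70 in transplanted wild type, and 17.0 in the transgenic library and 12.7 in steady-state wild type. Tpx2, which activates Aurora A and nucleates microtubules, had 36.7 FPKM in the library labelled knockout and 17.7 in transplanted wild type, and 31.1 in the transgenic library and 24.9 in steady-state wild type. Both passed 2-fold after transplantation. Nusap1, which bundles microtubules at chromosomes, was the most abundant, at 57.9 and 30.7 FPKM in the library labelled knockout and transplanted wild type and at 50.5 and 35.8 in the transgenic library and steady-state wild type, with the largest ratio of the group at steady state, 1.41 (1.29 to 1.54). Ckap2, a microtubule stabiliser, differed least in both, at ratios of 1.78 and 1.24, and its relative Ckap2l had 2.05 and 1.32. The 4 cytokinesis genes had medians of 0.92 and 0.42. Anln, the anillin scaffold of the cleavage furrow, had 13.9 FPKM in the library labelled knockout and 6.40 in transplanted wild type, and 11.2 in the transgenic library and 7.38 in steady-state wild type, and led in both comparisons. Racgap1, of centralspindlin, was the most abundant and differed least, at 58.6 FPKM in the library labelled knockout and 32.6 in transplanted wild type, and 51.2 in the transgenic library and 40.4 in steady-state wild type. Prc1, which bundles the central spindle, and Ect2, the RHOA activator of the furrow, had ratios of 1.87 and 2.05 after transplantation and 1.31 and 1.41 at steady state.

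Anaphase is set off by CDC20, which activates the anaphase-promoting complex, and by UBE2C, its ubiquitin-conjugating enzyme, which lead to the destruction of securin and the release of separase. These 5 genes had medians of 0.86 after transplantation and 0.27 at steady state, where their range, -0.09 to 0.53, was the widest of any group. Ube2c was at 100.1 FPKM in the library labelled knockout and 48.1 in transplanted wild type, and at 85 in the transgenic library and 58.5 in steady-state wild type, ratios of 2.08 (1.91 to 2.27) and 1.45 (1.33 to 1.59). Cdca3, an adaptor for the degradation of the CDK1 inhibitor WEE1, was at 78.8 FPKM in the library labelled knockout and 38.8 in transplanted wild type, and at 68.0 in the transgenic library and 56.3 in steady-state wild type. Pttg1, the securin gene, stood apart from its own target: it had 23.8 and 18.4 FPKM in the library labelled knockout and transplanted wild type (1.29, 1.08 to 1.55), and 25 and 26.7 in the transgenic library and steady-state wild type (0.934, 0.788 to 1.11). Espl1, the separase gene, had ratios of 1.84 (1.64 to 2.06) and 1.42 (1.26 to 1.60), whose intervals lie wholly above those of Pttg1 in both comparisons. Cdc20 had 1.85 and 1.15. Pttg1 has 6 annotated transcripts, the most of the list, and whether the sharing of reads among them bears on its FPKM was not tested.

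Condensin I compacts mitotic chromosomes, with the SMC2 and SMC4 ATPases as its core and NCAPD2, NCAPG and NCAPH as its regulatory subunits. It was the group with the smallest median after transplantation, 0.71, and none of its 5 genes passed 2-fold, while its median at steady state was 0.39. Smc4, the most abundant, was at 106 FPKM in the library labelled knockout and 70.4 in transplanted wild type, a ratio of 1.51 (1.43 to 1.59), and at 90.8 in the transgenic library and 82.4 in steady-state wild type, 1.10 (1.04 to 1.16). Smc2 had 33.6 FPKM in the library labelled knockout and 22.2 in transplanted wild type, 1.52 (1.40 to 1.65), and 32.4 in the transgenic library and 24.5 in steady-state wild type, 1.32 (1.21 to 1.44). The ATPases, which condensin II also uses, thus had nearly the same ratio after transplantation. Ncaph, the kleisin that closes the ring, had 45.7 FPKM in the library labelled knockout and 24.0 in transplanted wild type, 1.90 (1.70 to 2.13), and 39.4 in the transgenic library and 25.1 in steady-state wild type, 1.57 (1.39 to 1.77), the largest ratio of the list at steady state. Ncapd2 and Ncapg had ratios of 1.80 and 1.67 after transplantation and 1.22 and 1.48 at steady state. All 3 subunits of condensin II alone were higher in both comparisons, with ratios of 1.89 and 1.43 for Ncapg2, 1.63 and 1.09 for Ncapd3, and 1.20 and 1.12 for Ncaph2. The interval of Ncapd3 at steady state, 0.995 to 1.19, held 1. Top2a, the topoisomerase that untangles sister chromatids, was at 207 FPKM in the library labelled knockout and 103 in transplanted wild type, 2.01 (1.94 to 2.09), and at 164 in the transgenic library and 122 in steady-state wild type, 1.35 (1.30 to 1.40). Mki67, whose protein coats mitotic chromosomes and is the Ki-67 marker of cycling cells, was at 143 FPKM in the library labelled knockout and 72.7 in transplanted wild type, and at 120.0 in the transgenic library and 93.8 in steady-state wild type. Their intervals are the narrowest of the list.

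How evenly the genes differed was read against the median ratio of each comparison. After transplantation that median was 1.93, and 34 of the 51 intervals held it. Birc5, Cenpe, Cenpf, Kif11, Kif18b, Kif22, Spc24 and Top2a lay wholly above it, and Aurkb, Bub3, Cenpa, Kif20b, Ncapd2, Ncapg, Pttg1, Smc2 and Smc4 wholly below it. At steady state the median was 1.28, and 39 intervals held it. Anln, Cdca8, Ncapg, Ncaph, Nusap1, Plk4, Top2a and Ube2c lay above it, and Cenpa, Mad2l1, Pttg1 and Smc4 below it. Top2a was therefore above the middle of the list in both comparisons, and Cenpa, Pttg1 and Smc4 were below it in both. Ncapg was below it after transplantation and above it at steady state.

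**Figure D4:**
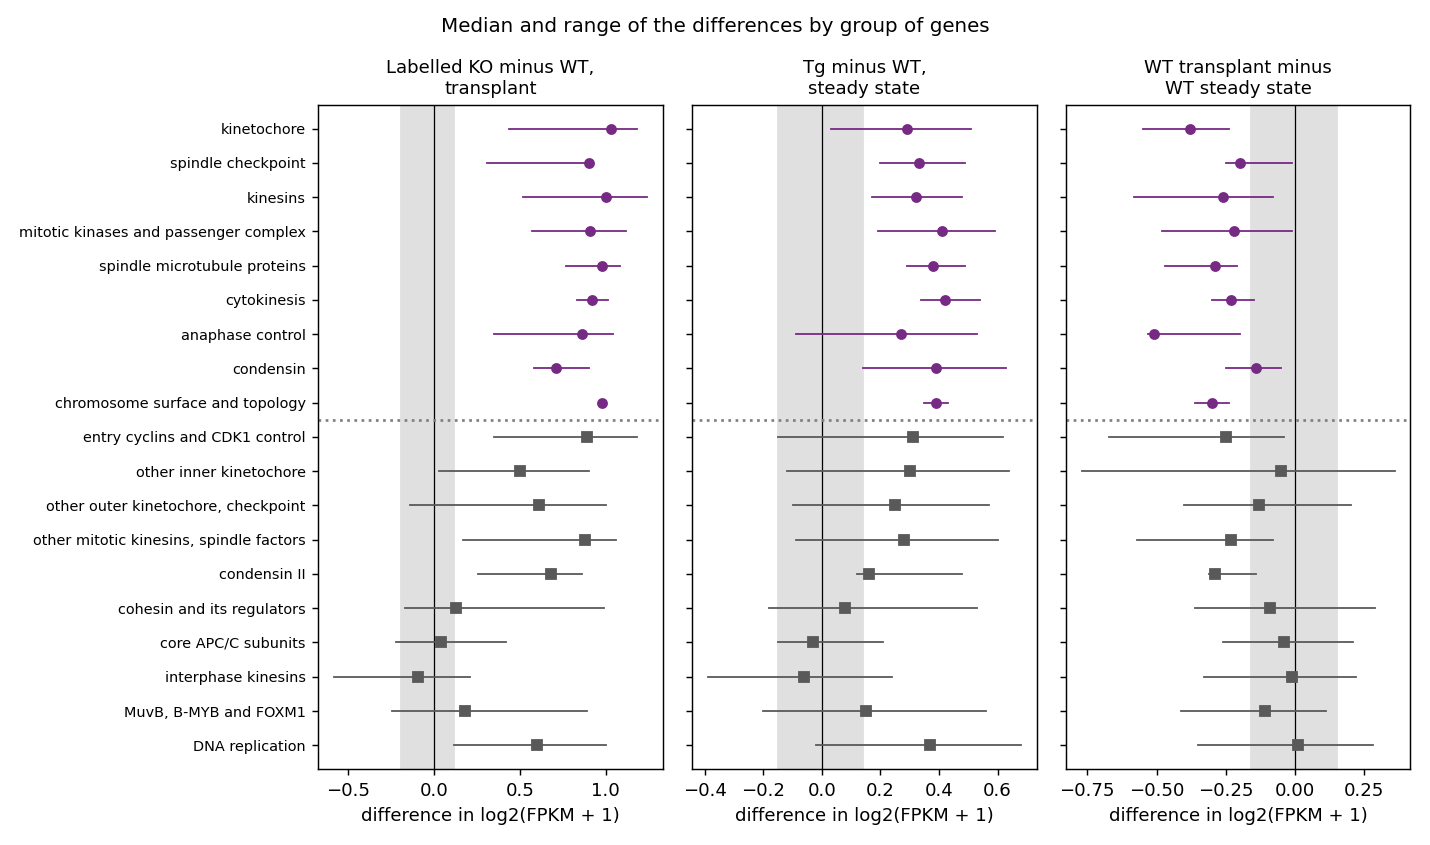
Difference in log2(FPKM + 1) for the 9 groups of mitosis genes (above the dotted line, purple) and 10 other lists (below it, grey), in 3 comparisons with their own scales; points are medians over genes, lines run from the lowest to the highest gene, and the grey band is the interquartile range of all genes at 1 FPKM or more. All 9 purple medians lie right of the band in the left and middle panels, whereas the core subunits of the anaphase-promoting complex and the interphase kinesins have medians inside it.

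Other genes of mitosis, in lists also chosen with earlier results of these data known, went the same way. After transplantation all 13 entry cyclins and CDK1 regulators stood higher with the knockout label, 5 by 2-fold or more, at a median of 0.89, and 11 of 13 in the transgenic library at 0.31. Cdkn3, a phosphatase acting on CDK1, was at 27.7 FPKM in the library labelled knockout and 11.6 in transplanted wild type, yet at 17.0 in the transgenic library and 19.1 in steady-state wild type. Ccnf, which encodes the F-box protein cyclin F, had 30.3 FPKM in the library labelled knockout and 14.0 in transplanted wild type, and 26.1 in the transgenic library and 17.3 in steady-state wild type. All 16 other mitotic kinesins and spindle factors were higher after transplantation, at 0.88, led by Dlgap5, a spindle assembly factor (22.5 FPKM in the library labelled knockout and 10.2 in transplanted wild type), and 14 of 16 at steady state, at 0.28. Of 18 other outer kinetochore and checkpoint genes, 17 were higher after transplantation, at 0.61, among them the cohesin protector Sgol1 (12.4 FPKM in the library labelled knockout and 5.72 in transplanted wild type), and 14 at steady state, at 0.25. The 16 other inner kinetochore genes, many of which sit on the centromere all through the cycle, had a median of 0.50 with all 16 higher, and of 0.30 with 12 higher. Cenpi was at 10.6 FPKM in the library labelled knockout and 5.22 in transplanted wild type.

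Relatives that also serve interphase cells had medians nearer 0. The 13 core subunits of the anaphase-promoting complex had medians of 0.04 after transplantation and -0.03 at steady state, the most different being Anapc13 at 92.7 FPKM in the library labelled knockout and 69.0 in transplanted wild type. The 15 of 23 interphase kinesins that reached 1 FPKM had medians of -0.09 and -0.06, the median after transplantation becoming 0.01 when libraries were scaled to the same sum. Cohesin and its regulators had medians of 0.13 and 0.08, the median at steady state turning to -0.04 on that scaling. Within that list Esco2, the acetyltransferase that locks cohesin on in S phase, had ratios of 2.07 and 1.47 and Cdca5, which encodes sororin, 1.61 and 1.39, whereas the ring subunit Rad21 had 1.34 and 1.05. Of the regulators that bind the CHR or act with it, Foxm1 had 49.1 FPKM in the library labelled knockout and 26.0 in transplanted wild type, and 42.6 in the transgenic library and 33.1 in steady-state wild type. Mybl2, which encodes B-MYB, had 20.2 FPKM in the library labelled knockout and 10.6 in transplanted wild type, and 17.7 in the transgenic library and 11.7 in steady-state wild type, while the 11 genes of that list together had medians of 0.18 and 0.15.

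Transplanted wild type was set against steady-state wild type as a further comparison. These libraries differ in transplantation and also in the code of their titles, which cannot be told apart, and each is the wild type of a genotype comparison above, so its values are not independent of those. All 51 genes were lower in transplanted wild type, where 54.1% of 10835 genes were lower, at a median of -0.25 in log2(FPKM + 1) beside -0.02 over all genes. None passed 2-fold, against 0.628% of all genes lower by that much. The interval of the ratio lay below 1 for 34 genes and held 1 for 17, with no count of such intervals over all genes. Cenpk (ratio 0.637, 0.412 to 0.974) and Kif18b (0.647, 0.551 to 0.759) had the smallest ratios, and Aurkb (0.995, 0.870 to 1.14) and Bub3 (0.990, 0.919 to 1.07) were level. The anaphase control group had the lowest median, -0.51, with Cdc20 at 29.0 FPKM in transplanted wild type and 42.1 in steady-state wild type, and condensin the one nearest 0, -0.14. Of the replication genes, 15 of 28 were higher and 13 lower, at a median of 0.01, which became -0.09 when libraries were scaled to the same sum.

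The balance of mitosis to replication genes was therefore taken within each library, where scaling between libraries has no part. The 28 replication genes were all higher in the library labelled knockout at a median of 0.60, below the 0.91 of the mitosis genes, and 27 of 28 in the transgenic library at 0.37, close to the 0.35 of the mitosis genes. The summed FPKM of the 51 mitosis genes was 1.39 times that of the replication genes in the library labelled knockout and 1.17 times in transplanted wild type. At steady state it was 1.37 times in the transgenic library and 1.41 times in wild type. Taken as ratios of medians the values were 0.892 and 0.634 after transplantation, and 0.792 and 0.785 at steady state. Transplanted wild type was thus the lowest of the 4 by either measure, and the other 3 lay close together by sums.

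**Figure D5:**
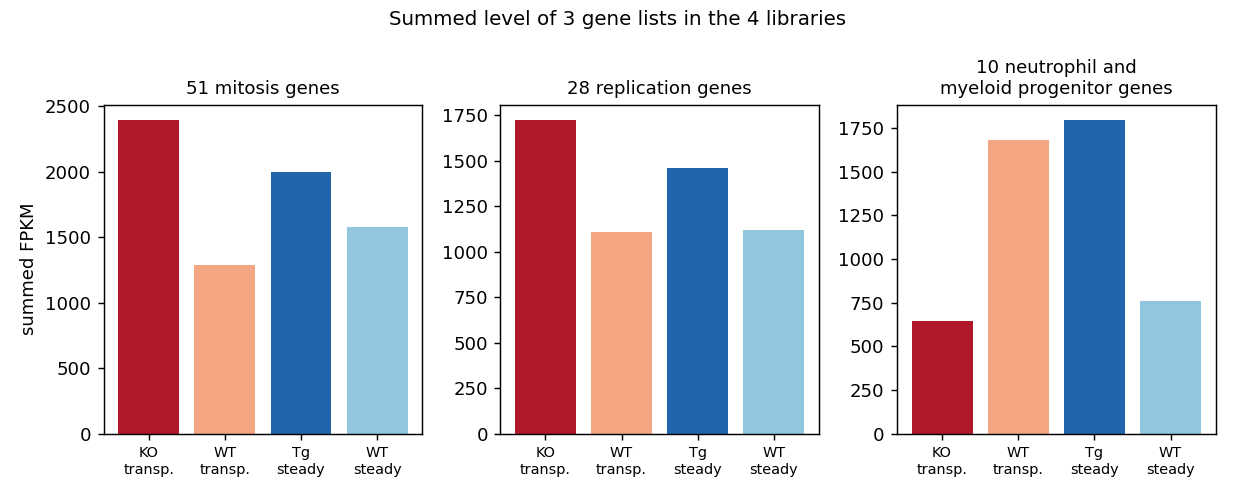
Summed FPKM of the 51 mitosis genes, of 28 replication genes and of 10 neutrophil and myeloid progenitor markers in the 4 libraries, each panel with its own axis from 0. The mitosis bars run from 1293 in transplanted wild type to 2394 in the library labelled knockout. The neutrophil bars go the opposite way in the transplant pair and the same way in the steady-state pair.

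Markers of other marrow cells moved between the libraries as well. All 10 neutrophil and myeloid progenitor markers were lower in the library labelled knockout, with a sum of 643 FPKM there and 1680 in transplanted wild type, opposite to the mitosis genes. In the transgenic library all 10 were higher, with sums of 1794 and 760 FPKM in transgenic and wild type, in the direction of the mitosis genes, and their part in that result was not tested. Most of these sums came from S100a8, at 719.7 and 293 FPKM, and S100a9, at 669.7 and 273, with ratios of 2.46 and 2.45. Mpo, Elane, Prtn3 and Ctsg had lower ratios, 1.45, 1.83, 1.49 and 1.81. Markers of early B precursors (Vpreb1, Vpreb2, Igll1, Dntt, Kit and Il7r) summed to 369 FPKM in the library labelled knockout and 263 in transplanted wild type, and to 362 in the transgenic library and 265 in steady-state wild type. Vpreb2 was at 0 in steady-state wild type, and Vpreb1 had ratios of 1.28 after transplantation and 4.71 at steady state. After transplantation the intervals were 1.02 to 1.61 for Vpreb1, 1.13 to 1.65 for Igll1, 1.03 to 1.52 for Dntt and 1.40 to 1.51 for Il7r. Those of Vpreb2, 0.721 to 1.91, and Kit, 0.768 to 2.55, held 1. At steady state the ratios of Igll1, Dntt and Il7r were 2.73, 3.55 and 1.15. These early B precursor markers thus moved with the mitosis genes in both genotype comparisons, by unlike amounts, and their part in the results was not tested. Between the wild types they went the other way: Vpreb1 was at 30.2 FPKM in transplanted wild type and 7.31 in steady-state wild type, Dntt at 12.1 in transplanted and 2.12 in steady-state wild type, and Igll1 at 36.4 in transplanted and 14.6 in steady-state wild type. Il7r, which makes up most of the sum, was at 176 FPKM in transplanted wild type and 240.3 in steady-state wild type, so the sums of both wild types are close although 4 of the 5 markers at 1 FPKM or more were at least 2-fold higher in transplanted wild type. Of the erythroid markers, the globin gene Hba-a1 was at 8.17 FPKM in the library labelled knockout and 4.38 in transplanted wild type, and at 3.89 in the transgenic library and 32.6 in steady-state wild type. Monocyte and macrophage markers summed to 38.9 FPKM in the library labelled knockout and 103 in transplanted wild type, all 6 being lower in the former. Their steady-state sums were 65.6 FPKM (transgenic) and 38.5 (wild type), mostly from Lyz2, whose values were 52.0 and 30.7. Of the 5 markers reaching 1 FPKM in that pair, 3 were higher with the transgene and 2, Cd68 and Emr1, lower. The ratios of Cd68 and Emr1 were 0.822 (0.481 to 1.39) and 0.658 (0.319 to 1.32), so both intervals held 1. Plasma cell markers summed to 90.7 FPKM in the library labelled knockout and 96.5 in transplanted wild type, and to 299.7 in the transgenic library and 417 in steady-state wild type. Igj made up most of the steady-state sums, at 204 and 306 FPKM. In the transplant pair Igj was at 7.23 FPKM with the knockout label and 16.6 in wild type. Sdc1, at 27.2 and 19.8 there, was the only 1 of the 4 that was higher. T and NK cell markers summed to 3.31 FPKM in the library labelled knockout and 8.05 in transplanted wild type, and to 3.78 in the transgenic library and 4.27 in steady-state wild type. Of these 6 markers only Nkg7 reached 1 FPKM in any library, at 1.9 FPKM in the library labelled knockout and 6.39 in transplanted wild type. Megakaryocyte markers summed to 0.624 FPKM in the library labelled knockout and 1.62 in transplanted wild type, and to 4.34 in the transgenic library and 8.51 in steady-state wild type.

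The 51 genes lie on 16 chromosomes, at most 9 on 1 of them. On mm10 Kif18b spans chr11:102905529-102925124, Ncaph chr2:127103809-127133954, Bub3 chr7:131560222-131571895 and Pttg1 chr11:43420250-43426251. By GENCODE M21, 10 of them overlap a protein-coding gene on the opposite strand: Bub3, Cdc20, Cdca8, Cenpk, Kif20a, Kif4, Ncapg, Nusap1, Prc1 and Ube2c. A near-identical stretch is shared with another annotated gene by 7 members, at the overlap itself by Kif20a, Kif4, Ncapg and Prc1, and with a copy elsewhere by Mad2l1, Ndc80 and Racgap1. The values of these genes are less certain, since how reads were assigned by strand or among copies is not given in the sources used here.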

How the data were processed

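Poly(A) RNA of pre-B cells was sequenced from stranded TruSeq libraries, per the labels' protocols, with 1 library in each of 4 groups. The authors deposited FPKM values per gene symbol; the submitters' processing notes name build mm10 with Cufflinks 2.2.1, Bowtie2 2.2.3, TopHat2 2.0.13 and SAMtools 0.1.19, and no source used here gives the annotation or whether strand was counted. FPKM were compared as log2(FPKM + 1) over genes reaching 1 FPKM in either library of a pair, with 2-fold as threshold. Ratios of plain FPKM have exact Clopper-Pearson 95% intervals from reads estimated from FPKM, transcript length and the depth read off the steps of 1 read, approximate for genes with several transcripts. Between 65.3% and 68.2% of low values lay within 0.1 of a whole read, where evenly spread values would give 20%. Depth was fitted to the same genes, each with 1 annotated transcript, so that share is no independent check of it. Intervals cover counting error only. With 1 library per group no test was possible. Named genes were, in each functional group, the highest in level, those with the largest and smallest difference in each genotype comparison, those opposite to the list and those past 2-fold, and in other lists up to 3 with the largest difference; others are given by ratio only. The members and all lists were chosen with earlier results of these data known. Alternatives were pseudocount, filter, scaling, threshold and, chosen after seeing the data, leaving out genes with near-identical stretches. Promoters are RefSeq windows on GRCm38.p6; gene models are GENCODE M21. Work was done in Python 3.11.15 with pandas 2.3.3, scipy 1.17.1 and BLAST 2.17.0. Some marker genes and the sums that hold them are not reported here.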

Additional observations from a re-analysis of the deposited data

How the results depend on the processing

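No paired analysis was possible because each group has 1 library, and for the same reason no library could be left out. After transplantation all 51 genes stayed higher in the library labelled knockout under every scaling, pseudocount and filter run, with medians of 0.91 to 1.00 and 18 to 27 genes past 2-fold. Scaling to the same FPKM sum changed the genes past 2-fold over the whole table to 116 higher and 105 lower, against 72 and 127 as deposited. At steady state that scaling gave a median of 0.23 and 3 genes lower in the transgenic library. A 1.5-fold threshold was passed by 45 genes after transplantation and 2 at steady state, and the counting interval excluded 1 for 51 and 46. Shares over all genes were not counted for either measure. In transplanted against steady-state wild type the interval excluded 1 for 34 genes, all lower, and upper-quartile and median-ratio scaling each left 2 genes higher. Without the 7 genes that share near-identical stretches, an alternative chosen after seeing the data, the medians were 0.92, 0.35 and -0.25. No median of the 51 genes changed sign. Among the other lists the median of cohesin at steady state, of interphase kinesins after transplantation and between the wild types, and of replication genes between the wild types did under at least 1 scaling.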
